A study of Mus musculus with 5 samples.

Results

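The genes examined here were the receptors and ligands of the colony-stimulating factor family in mouse liver. They were 10 genes fixed by name, namely Csf1r, Csf1, Il34, Csf2, Csf2ra, Csf2rb, Csf2rb2, Csf3r, Flt3 and Kit, of 18820 genes that the array could name. Each of the 10 had a single probe set with its symbol alone, so no choice between probe sets was needed, and no other probe set carried the same values. Adult C57Bl/6 mice received 300 µg of antibody by intraperitoneal injection 3 times a week for 6 weeks. The control group was given rat IgG and comprised 3 liver arrays. The treated group was given M279, an antibody against CSF1R, and comprised 2 liver arrays. No other treatment or allele was labelled in either group. The labels do not say whether each array came from its own mouse, and the p-values below describe the spread among these 5 arrays, which may be technical in part. So few arrays limit the precision.

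Colony-stimulating factors are secreted proteins that keep blood-forming and myeloid cells alive and make them divide and mature. CSF1R is a receptor tyrosine kinase of monocytes and macrophages, and the liver's own macrophages, the Kupffer cells, depend on it. Its ligands are CSF1, which Kupffer cells also clear from the blood, and IL-34. GM-CSF, the product of Csf2, acts through a specific alpha chain and a shared beta chain, G-CSF acts through CSF3R, and FLT3 and KIT are relatives of CSF1R on dendritic cells, progenitors and mast cells. The study asked how blocking CSF1R altered liver gene expression, and the comparison below was made for the messages of the receptor family itself.

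Csf1r was the member with the largest difference. On the log2 scale it stood at 8.49, 8.68 and 8.61 on control replicates 1, 2 and 3, and at 7.93 and 8.12 on treated replicates 1 and 2. In linear intensity these were 359, 410 and 390 in controls and 244 and 278 after M279. Both treated arrays lay under all controls, and the gap between the groups was wider than the spread within either. The control mean was 8.59 ± 0.10 (SD, n = 3) and the treated mean 8.03 ± 0.13 (SD, n = 2), which is 32.4% lower in linear intensity, with a 95% interval from 44.9% to 17.0% lower. The log2 difference of -0.56 ± 0.12 (SE) had an adjusted p of 0.191 in limma over all 35556 probe sets (unadjusted p = 0.0034), so it missed the threshold of 0.05. No probe set in the table passed it, 0% higher and 0% lower. In whole liver, fewer cells that carry Csf1r and less Csf1r message per cell cannot be told apart.

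The other 9 members differed by less. In all, 8 of the 10 had lower and 2 had higher mean values in treated liver, with a median difference of -0.18. Over all probe sets 42.8% had lower values, and the median difference was 0.05. That median varied with level. It was 0.18 for probe sets with a mean log2 intensity of 3 to 4, where Csf2 and Flt3, the 2 higher members, lie. For those of 5 to 6, 6 to 7 and 8 to 9, where the 8 lower members lie, it was -0.09, -0.16 and -0.07. The signs of all 10 are thus those of their level bins. Both treated arrays lay below all controls for 3 members, Csf1r, Csf2ra and Kit, where 16.9% of all probe sets did so. The share was 36.6% among probe sets of 6 to 7, the level of Csf2ra and Kit, and 29.1% among those of 8 to 9, the level of Csf1r. Both treated arrays lay above all controls for 1 member, Csf2, where 24.3% of all probe sets and 42.6% of those of 3 to 4 did so. The groups overlapped for the remaining 6. At an unadjusted p under 0.05 there were 2 members, Csf1r and Kit, both lower, against 8.34% of all probe sets lower and 10.1% higher. With 5 arrays the smallest p of an exact permutation test would be 0.1, and none was run.

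**Figure D1:**
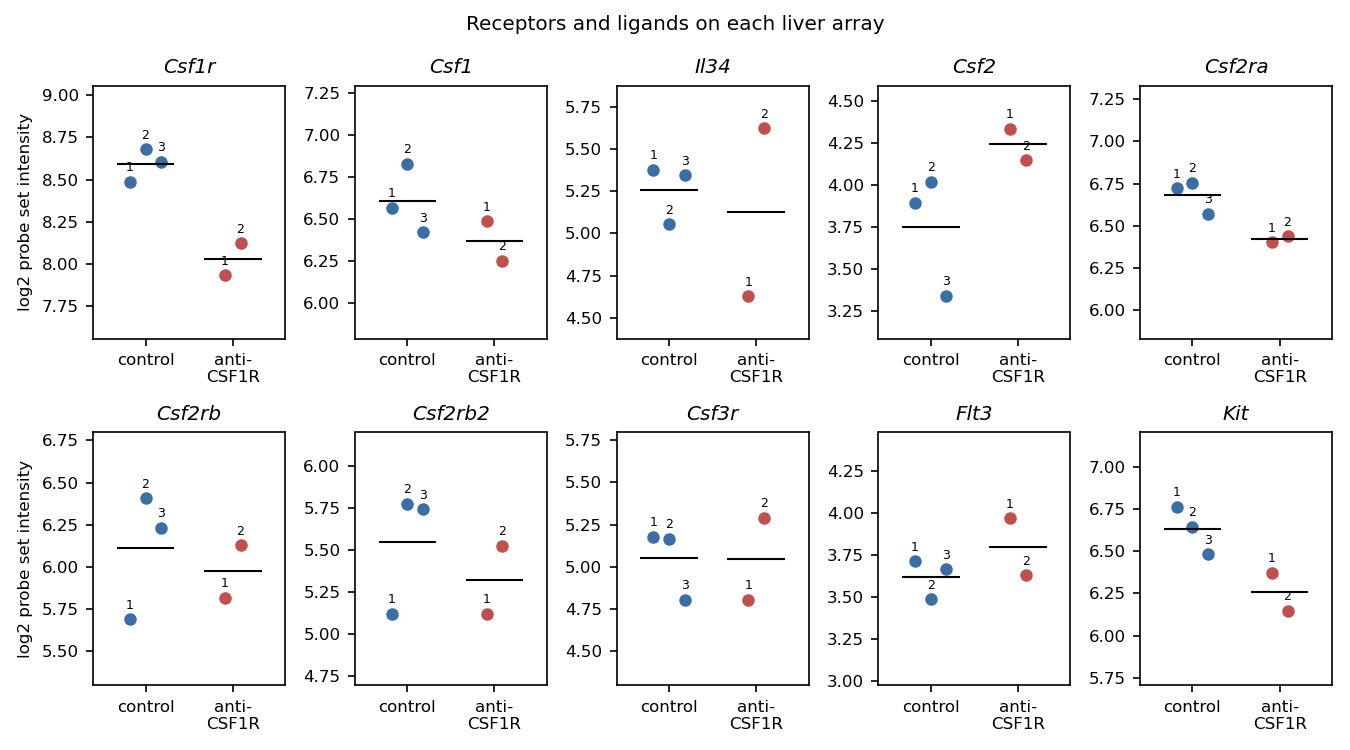
Log2 probe set intensity of each of the 10 receptors and ligands on every array. Blue points are the 3 control arrays, red points the 2 anti-CSF1R arrays, numbers are replicate numbers and bars are group means; all panels span the same log2 range. The treated points of Csf1r, Csf2ra and Kit lie under all their controls, and those of Il34 lie on either side of them.

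The differences depended on how bright a probe set was. Over all probe sets, the median difference was 0.18 for those with a mean log2 intensity of 3 to 4, -0.16 for those of 6 to 7 and -0.07 for those of 8 to 9. Among the 3720 probe sets of 6 to 7, 36.6% had both treated arrays below all controls, and among the 7237 of 3 to 4, 42.6% had both above. The table carries no detection calls, so 1006 probe sets of olfactory receptor genes, which liver is not known to use, served as a reference for signal without a matching transcript. Their mean log2 intensity had a median of 2.90 and a 95th percentile of 4.19, and 90.6% of them read higher on the treated arrays, by a median of 0.18. Values of single members are read against these shifts below.

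**Figure D2:**
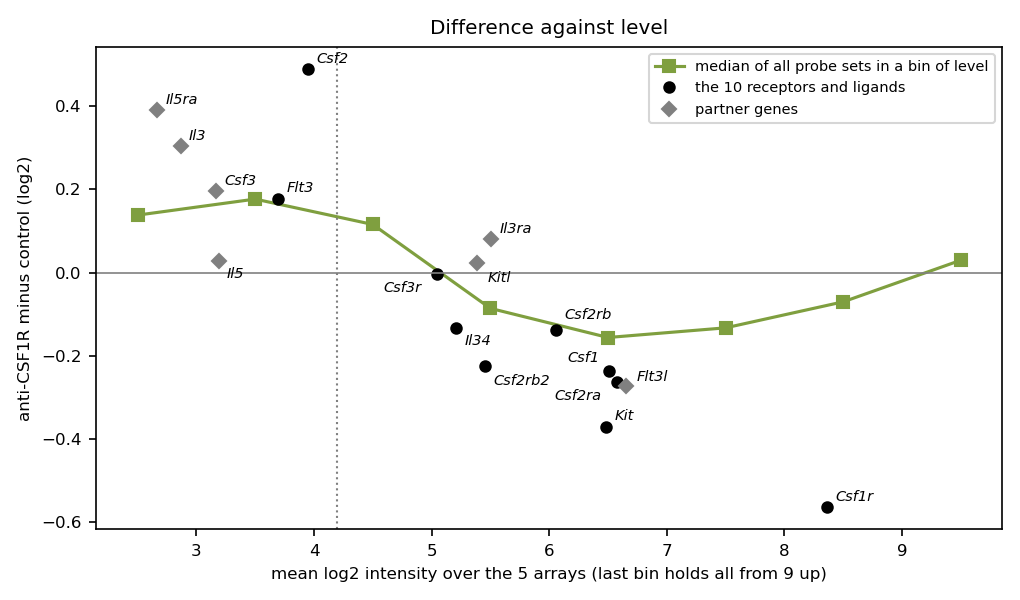
Anti-CSF1R minus control in log2 intensity (vertical axis) against mean log2 intensity over the 5 arrays (horizontal axis). Black points are the 10 members, grey diamonds the partner genes, green squares the median of all probe sets in bins of level, and the dotted line is the 95th percentile of olfactory receptor probe sets, 4.19. Csf1r at -0.56 lies far below the bin median of -0.07, while Csf3r and Flt3 lie on or near the green line that joins the bin medians.

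Of the 1913 named genes with a mean of 8 to 9, 1.57% had a lower difference. When the arrays were forced to one distribution by quantile normalization, Csf1r stood at -0.50, and with cyclic loess, which removes shifts with level, it stood at -0.48. Among the 10 members Csf1r alone had treated arrays that stayed below all controls under both of these scalings. Of all probe sets, 14.5% lay below all controls with quantile normalization and 16.9% with cyclic loess. A count of 1 in 10 members is not above these shares. The Csf1r difference was -0.47 when treated replicate 1 was left out and -0.66 when treated replicate 2 was.

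The ligands of CSF1R gave no clear difference. Csf1, the growth factor that maintains macrophages, read 6.57, 6.83 and 6.42 on the control arrays and 6.49 and 6.25 on the treated arrays. The groups overlapped, and the difference was -0.24 ± 0.16 (SE), with a 95% interval from -0.62 to 0.15 (limma, adjusted p = 0.424). It was -0.12 when treated replicate 2 or control replicate 2 was left out, and -0.35 when treated replicate 1 was. It was -0.08 after quantile normalization and -0.10 with cyclic loess. Il34, the second ligand, known from skin and brain as a factor for resident macrophages, read 5.38, 5.05 and 5.35 in controls but 4.63 and 5.62 in treated liver. One treated array lay under all controls and the other above them, so the treated SD of 0.71 exceeded the control SD of 0.18. Its mean difference of -0.13 had an interval from -0.86 to 0.59, and its sign followed the array kept, -0.63 with treated replicate 1 alone and 0.37 with treated replicate 2 alone.

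The GM-CSF axis comprised a ligand and 3 receptor chains. Csf2, the GM-CSF gene, read 3.90, 4.02 and 3.34 in controls and 4.33 and 4.15 after M279, with both treated arrays above all controls. Its difference of 0.49 ± 0.22 (SE), with an interval from -0.05 to 1.03, was the larger of the 2 positive ones (limma, adjusted p = 0.295). Its mean level lay within the reference, with 7.95% of olfactory receptor probe sets brighter. Control replicate 3 read lowest. Without that array the difference was 0.28, and with cyclic loess it was 0.34 and the groups overlapped. Csf2ra, the alpha chain that binds GM-CSF, read 6.72, 6.76 and 6.57 in controls and 6.40 and 6.44 in treated liver. The treated arrays lay below all controls, by -0.26 ± 0.11 (SE), with an interval from -0.53 to 0.01 (limma, adjusted p = 0.280). At its level the whole table shifted by -0.16, and the groups overlapped after quantile normalization (-0.10) and with cyclic loess (-0.13).

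The beta chains varied more between arrays than between groups. Csf2rb encodes the chain shared by the receptors for GM-CSF, IL-3 and IL-5, and Csf2rb2 encodes a closely related chain that in mice serves IL-3. The genes are neighbours on chromosome 15. Csf2rb read 5.69, 6.41 and 6.23 in controls and 5.82 and 6.13 in treated liver. Csf2rb2 read 5.12, 5.77 and 5.74 in controls and 5.12 and 5.52 in treated liver. For both genes control replicate 1 and treated replicate 1 were low and control replicate 2 was highest. Of the 45 pairs of members they had the most alike array profiles, with a root mean square difference of 0.07 after centring each gene on its mean, where the median pair differed by 0.33. How far the probes of such similar genes pick up each other's message was not tested. The differences were -0.14 ± 0.24 (SE) for Csf2rb and -0.22 ± 0.24 (SE) for Csf2rb2, with intervals from -0.71 to 0.44 and from -0.81 to 0.37. Csf2rb was at 0.02 without treated replicate 1, at 0.01 without control replicate 2 and at 0.0045 after quantile normalization, and Csf2rb2 was at -0.02 without treated replicate 1 and at -0.44 without control replicate 1.

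Csf3r, the G-CSF receptor of neutrophils, read 5.18, 5.17 and 4.80 in controls and 4.80 and 5.29 in treated liver. The treated arrays spanned nearly the whole control range, and the difference was -0.0022 ± 0.20 (SE), with an interval from -0.48 to 0.48, so a change of up to about 1.39-fold in either direction could not be told from none. Its sign changed when single arrays were left out, from -0.25 without treated replicate 2 to 0.24 without treated replicate 1. Neutrophil markers had higher values on treated arrays for 8 of 11 measured genes, of which 7 lay above all controls, with a median of 0.23. Of the olfactory receptor probe sets, 48.5% lay above all controls, as did 29.7% of all probe sets of 4 to 5, where the list's median level of 4.39 lies. With 1 probe set per gene, the share for 4 to 5 was 37.3%. The summed intensity of the neutrophil markers was 184 to 209 in controls and 226 to 229 in treated liver. However, 5 of the 11 lay under the 95th percentile of olfactory receptor probe sets. The 3 markers of smallest p lay above that percentile, at mean levels of 4.62, 4.60 and 4.50. The calgranulin S100a9 read 4.55, 4.47 and 4.47 in controls and 4.83 and 4.78 in treated liver. Elane, a protease of neutrophil granules, was at 0.33 ± 0.10 (SE), and Retnlg at 0.54 ± 0.19 (SE). None passed in limma, with adjusted p-values of 0.226, 0.221 and 0.236. The lower values were those of Mmp9 at -0.07, Ngp at -0.05 and Cxcr2 at -0.01.

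Of the receptor tyrosine kinases related to CSF1R, Kit had lower values. KIT binds stem cell factor on mast cells and blood-forming progenitors. Kit read 6.76, 6.65 and 6.48 in controls and 6.37 and 6.15 in treated liver, with the treated arrays below all controls. The difference was -0.37 ± 0.14 (SE), or 22.6% lower, with an interval from 38.6% to 2.54% lower (limma, adjusted p = 0.245, unadjusted p = 0.0346). Among all probe sets of 6 to 7, where the mean level of Kit lies, the median difference was -0.16 and 36.6% lay below all controls. After quantile normalization Kit was at -0.21 and with cyclic loess at -0.24, and the groups then overlapped. Of the mast cell and basophil markers 6 of 9 had higher values, 5 of them above all controls. However, 8 of the 9 lay under the 95th percentile of olfactory receptor probe sets, of which 48.5% lay above all controls, so these counts are near that background. Their summed intensity was 122 to 130 in controls and 128 to 146 in treated liver. Among 5 measured progenitor genes 3 were lower, and Meis1, a transcription factor of blood stem cells, was at -0.30 ± 0.11 (SE; limma, adjusted p = 0.258). Their summed intensity was 211 to 232 in controls and 191 to 223 in treated liver, and their part in the Kit value was not tested.

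Flt3, the receptor tyrosine kinase of dendritic cell progenitors, read 3.71, 3.49 and 3.67 in controls and 3.97 and 3.63 in treated liver. The groups overlapped, the level lay within the olfactory receptor reference (13.4% of those probe sets were brighter), and the mean difference was 0.18 ± 0.15 (SE). Its treated arrays disagreed: the difference was 0.0088 when treated replicate 1 was left out and 0.35 when treated replicate 2 was. With cyclic loess it was 0.02. Dendritic cell markers were lower for 4 and higher for 7 of 11 genes, with a summed intensity of 342 to 388 in controls and 349 to 356 in treated liver. Clec9a, a receptor of cross-presenting dendritic cells, read 5.99, 6.50 and 5.96 in controls and 5.62 and 5.82 in treated liver, while the transcription factor Zbtb46 was at 0.23 ± 0.10 (SE) and the lectin Cd209a at 0.24 ± 0.14 (SE). Their adjusted p-values in limma were 0.303, 0.293 and 0.370.

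Promoter sequence is shown for Csf2ra and Kit, the receptors other than Csf1r whose treated arrays lay below all controls. RefSeq promoters of build GRCm38.p6, from 250 bases before to 50 bases after the annotated start, were at hand for 7 of the 10 members. Capitals mark GAGGAA, the core that the myeloid factor PU.1 prefers, searched on both strands. Csf2ra lies at chr19:61228369-61228668 on the minus strand and Kit at chr5:75574737-75575036 on the plus strand.
Csf2ra: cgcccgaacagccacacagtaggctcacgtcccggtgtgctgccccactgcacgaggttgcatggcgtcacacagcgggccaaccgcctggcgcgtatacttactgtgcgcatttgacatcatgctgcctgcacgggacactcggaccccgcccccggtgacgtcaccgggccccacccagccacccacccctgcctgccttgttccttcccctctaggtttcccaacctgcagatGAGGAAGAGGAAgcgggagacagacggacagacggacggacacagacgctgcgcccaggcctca
Kit: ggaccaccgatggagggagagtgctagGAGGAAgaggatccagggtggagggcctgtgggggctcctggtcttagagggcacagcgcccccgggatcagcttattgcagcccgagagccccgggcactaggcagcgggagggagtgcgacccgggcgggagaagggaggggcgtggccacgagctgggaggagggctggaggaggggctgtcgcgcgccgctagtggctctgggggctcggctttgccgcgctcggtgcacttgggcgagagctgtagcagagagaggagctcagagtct
Csf2ra held 2 matches side by side, starting 14 and 8 bases before the start, and Kit held 1, starting 223 bases before it. Csf3r held 1 and Csf2rb2 held 2, while Csf1, Flt3 and Csf2 held none. Of 32851 promoters in the table, 28.3% held a match and 4.82% held 2 or more. A match is a run of letters and was not tested as a binding site.

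**Figure D3:**
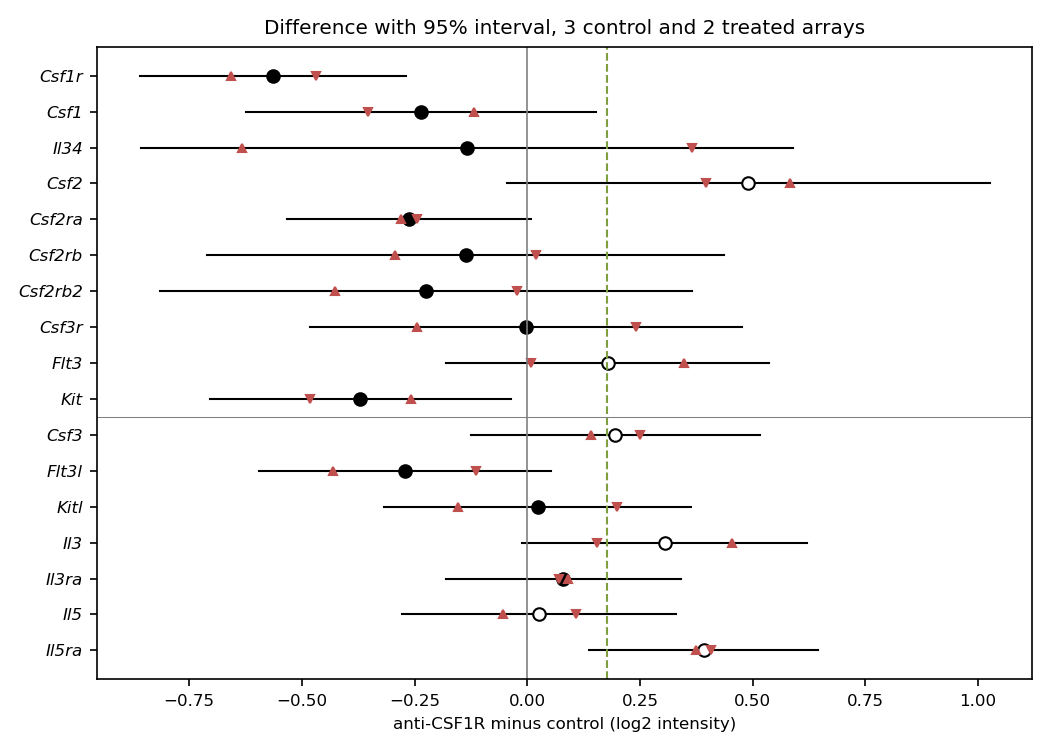
Anti-CSF1R minus control in log2 intensity, with limma's 95% interval, for the 10 members (upper part) and 7 partner genes (lower part). Open circles are genes under the 95th percentile of olfactory receptor probe sets, red upward and downward triangles are treated replicates 1 and 2 against the control mean, and the dashed line is the olfactory receptor median of 0.18. The intervals of Csf1r, Kit and Il5ra leave out 0, and Il5ra is an open circle.

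The 7 partner genes of the same systems gave 1 lower and 6 higher values, and none passed in limma. Flt3l, the ligand of FLT3, read 6.75, 6.83 and 6.71 in controls and 6.33 and 6.65 in treated liver, a difference of -0.27 ± 0.13 (SE; adjusted p = 0.318). Treated replicate 1 carried most of this, and the value was -0.11 without it. Kitl, the ligand of KIT, read 5.40, 5.42 and 5.30 in controls and 5.22 and 5.58 in treated liver, at 0.02 ± 0.14 (SE). It was -0.15 without treated replicate 2 and -0.01 without control replicate 3. Csf3 (0.20 ± 0.13, SE), which encodes G-CSF, Il3 (0.30 ± 0.13, SE), Il5 (0.03 ± 0.12, SE) and the IL-5 receptor chain Il5ra (0.39 ± 0.10, SE) all lay under the 95th percentile of olfactory receptor probe sets. With cyclic loess Il5ra was at 0.21 and Csf3 at 0.02, and Il5 turned to -0.14. Il3ra, the alpha chain for IL-3, read 5.50, 5.38 and 5.53 in controls and 5.56 and 5.54 in treated liver, a difference of 0.08 ± 0.11 (SE).

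Among cells that carry Csf1r, most general macrophage markers had lower values, more so on treated replicate 1 than on treated replicate 2. None passed the test. Kupffer cell and monocyte markers were mixed, as given below. Of 17 general macrophage genes, 16 had lower values, 8 lay below all controls and none above, with a median of -0.31. The list's median level was 7.79, and 38.9% of all probe sets of 7 to 8 lay below all controls, with a median difference of -0.13, so a count of 8 is not far from that background. On treated replicate 1 the list's median was -0.55 and Csf1r stood at -0.66. On treated replicate 2 they stood at -0.18 and -0.47. The list's summed intensity was 4748 to 5578 in controls and 3742 to 4841 in treated liver, so the groups overlapped. The lysosomal protease Ctss read 7.31, 7.40 and 7.26 in controls and 6.50 and 6.94 in treated liver. Mpeg1, a pore-forming protein of phagocytes, was at -0.57 ± 0.16 (SE) and the mannose receptor Mrc1 at -0.31 ± 0.11 (SE), and their adjusted p-values in limma, with that of Ctss, were 0.207, 0.232 and 0.195.

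Kupffer cell markers split. Of 9 genes 6 had lower and 3 higher values, with a median of -0.17. Treated replicate 1 stood at -0.35 and treated replicate 2 at 0.11. Their summed intensity was 4573 to 4871 in controls and 4001 to 4386 in treated liver, but without C6, a recount chosen after seeing the data, it was 2763 to 3248 and 2393 to 3213, which overlap. The scavenger receptor Marco read 5.14, 4.89 and 4.67 in controls and 6.11 and 6.36 in treated liver, opposite in sign to Csf1r, whereas Cd163, the receptor for haemoglobin bound to haptoglobin, was at -0.80 ± 0.16 (SE) and the complement gene C6 at -0.36 ± 0.20 (SE). Of 8 monocyte genes 3 were lower and 5 higher, with a summed intensity of 294 to 521 in controls and 293 to 466 in treated liver, and 3 lay under the 95th percentile of olfactory receptor probe sets. Cx3cr1, the fractalkine receptor of patrolling monocytes, read 4.71, 4.98 and 4.68 in controls and 4.12 and 4.33 in treated liver, while F13a1 and Chil3 overlapped between groups at 0.39 and 0.38. How much of the Csf1r difference goes with macrophage number was not tested. Genes of hepatocytes, the main cells of the tissue, were bright on all arrays, with a summed intensity of 54244 to 55890 in controls and 54617 to 54677 in treated liver, and Hnf4a, Cps1 and Cyp2e1 were at -0.18, -0.20 and 0.11.

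**Figure D4:**
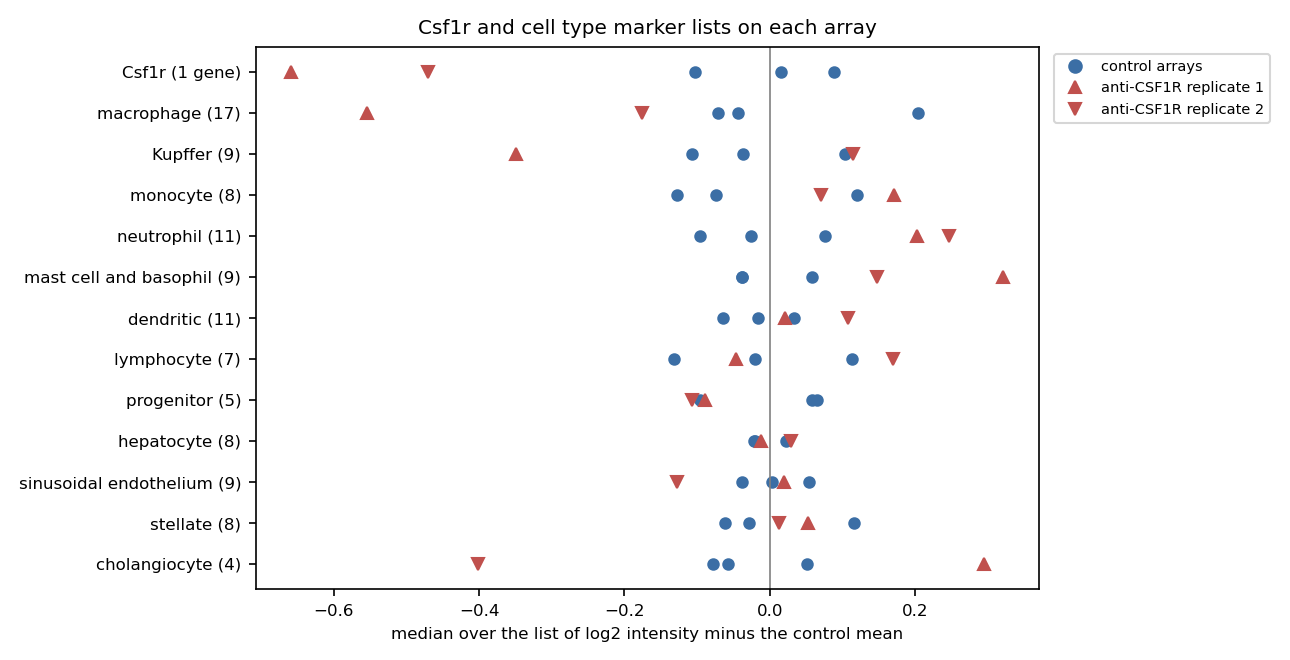
Csf1r and the median of each cell type marker list on every array, as log2 intensity minus the control mean, with the number of measured genes in brackets. Blue circles are the 3 control arrays and red triangles the 2 treated arrays. Csf1r is low on both treated arrays (-0.66 and -0.47), the macrophage list more so on treated replicate 1 (-0.55) than on treated replicate 2 (-0.18), and the Kupffer cell list stands on either side of 0 (-0.35 and 0.11).

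None of the genes measured that act below these receptors passed the test in limma. Of 19 measured genes of proximal receptor signalling, 16 had lower values, 6 lay below all controls and 1 above, with a median of -0.19 and no call in limma. The list's median level was 6.44, and 36.6% of all probe sets of 6 to 7 lay below all controls, with a median of -0.16, so the counts are near that background. The regulatory subunit of phosphoinositide 3-kinase, Pik3r1, was at -0.48 ± 0.18 (SE), and was -0.21 without treated replicate 2. The tyrosine kinase Syk, which acts with immune receptors, was at -0.35 ± 0.13 (SE), and Pik3cd, the leukocyte catalytic subunit, at -0.24 ± 0.11 (SE), with adjusted p-values of 0.244, 0.251 and 0.307 for these genes in limma.

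Of 13 genes of the JAK-STAT pathway, which GM-CSF, G-CSF and IL-3 use, 9 were lower, 2 of them below all controls, with a median of -0.13. Over all probe sets 16.9% lay below all controls. Of those of 7 to 8, which includes the list's median level of 7.69, 38.9% did, with the same median of -0.13. The largest difference was that of Cish, a feedback inhibitor induced by STAT5, which growth hormone also drives in liver. It read 7.54, 8.55 and 8.32 in controls and 6.68 and 6.17 in treated liver, a difference of -1.71 ± 0.33 (SE; limma, adjusted p = 0.187). Stat3 (-0.38) and the inhibitor Socs3 (-0.38) overlapped between groups, and without treated replicate 2 they were at -0.10 and -0.11. Transcription factors that act on Csf1r or in macrophages were lower for 8 of 12 measured genes, but for none were the treated arrays below all controls. Runx1, at -0.39 ± 0.22 (SE), Zeb2, at -0.19 ± 0.12 (SE), and Maf, at -0.15 ± 0.12 (SE), had the smallest p-values among them (limma, adjusted p of 0.363, 0.405 and 0.493).

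The genes whose 5 array values were most like those of Csf1r, each centred on its own mean, were sought among 9409 others with a level at or above the median. The closest was Mid2, an E3 ubiquitin ligase, with a root mean square difference of 0.03 on the log2 scale, reading 6.94, 7.10 and 7.11 in controls and 6.42 and 6.60 in treated liver. The next 4 were Srgap2, the actin-binding protein gene Shroom3, Scai, and the transcription factor gene Sox5, at root mean square differences of 0.06. Their differences lay between -0.57 for Sox5 and -0.51 for Srgap2, and each had both treated arrays below all controls. Both features follow from choosing genes by likeness to Csf1r and are no separate result. With 5 arrays and so many candidates, such likeness is a description of these arrays.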

How the data were processed

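The deposited table holds 1 intensity per probe set and array on a linear scale, with array medians of 32.5 to 33.9. Per the submitters' processing notes the tool was Affymetrix Expression Console 1.1. Its settings for background, summarisation and normalization are not given in the sources used, and a method that leaves shifts with level would move dim and bright genes differently. The deposited intensity was used as log2, unfiltered and without a pseudocount or further scaling. Of 35556 probe sets, 21218 had 1 gene symbol in the platform annotation, 1881 had several and 12457 were not listed; per gene the probe set with the highest mean was kept (18820 genes). No 2 arrays were identical, and pairs correlated at 0.983 to 0.992 (Pearson, across probe sets).

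The groups were compared by lmFit and eBayes of limma 3.58.1 (R 4.3.3) in a two-sided test, with 3 residual and 3.03 prior degrees of freedom. Adjusted p-values follow Benjamini-Hochberg over all probe sets, the threshold was 0.05, and intervals are 95%. The step was tested on simulated data. The members and the 16 lists, with 157 of 170 genes measured, were chosen with earlier results of these data known. Named genes were the members, their partners, up to 3 genes of smallest p per list and the 5 genes closest to Csf1r. Alternatives were quantile normalization, median centring, cyclic loess, log2(intensity + 16), filters at the 25th percentile and the median, 1 probe set per gene, a trend and robust variance, the replicate number as a block, and leaving out each array. Plots used matplotlib 3.10.9 (Python 3.11.15).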

Additional observations from a re-analysis of the deposited data

How the results depend on the processing

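Csf1r kept its negative sign and stayed short of the threshold in all 14 alternatives, with differences from -0.66 to -0.47 and adjusted p from 0.0798 to 0.411. Over the 10 members, 128 of 138 values under an alternative kept sign and side of the threshold and 10 changed sign, all of Il34, Csf2rb or Csf3r. The filters, 1 probe set per gene, and the trend and robust variance refitted the same values, so no sign could change there. The count of called probe sets was 0 except with 1 probe set per named gene, where 14 were called, Marco among them (1.34) and no member. Fewer probe sets were tested there. The filter at the median also tested fewer and called 0, but it kept probe sets by level and not by name. The 2 settings thus differ in more than the number tested. The reason for the 14 calls was not tested. The filter at the median left out Csf2 and Flt3, and a mean over probe sets gave nothing new for the members, which have 1 each. With quantile normalization Csf2rb was at 0.0045, Csf3r at 0.026, Il5 at -0.117 and Cd8a at -0.0051. With cyclic loess Il5 was at -0.14, Cyp2e1 at -0.034 and Cd8a at -0.030. Csf3r was at 0.036 with median centring and 0.00068 with log2(intensity + 16). When 1 array was left out, Csf1r ranged from -0.66 to -0.47, Il34 from -0.63 to 0.37, Csf2rb from -0.35 to 0.020, Csf3r from -0.25 to 0.24, Kitl from -0.15 to 0.20, Il5 from -0.054 to 0.11, Krt19 from -0.23 to 0.63, Ms4a1 from -0.51 to 0.20, Cd48 from -0.56 to 0.0030 and Pdgfrb from -0.60 to 0.047. Members with both treated arrays below all controls numbered 1 with quantile normalization or cyclic loess and 3 to 5 without 1 array. The share over all probe sets was 14.5% with quantile normalization, 16.9% with cyclic loess and 20.0% to 28.9% without 1 array. The olfactory receptor median was 0.05 with quantile normalization, 0.21 with median centring and 0.01 with cyclic loess; the recount of members and these medians were chosen after seeing the data. With the replicate number as a block, Csf1r was at -0.56 (limma, adjusted p = 0.3855) and Kitl at -0.014, and 0 probe sets were called. Only controls have a replicate 3, so these differences equal those without control replicate 3 and are no separate check. Deviations of same-numbered arrays from their group means correlated at 0.03 for replicate 1 and 0.03 for replicate 2. The deviations of 2 treated arrays are mirror images of each other, so these values say little about pairing. The cause of the shifts with level was not tested.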

Other observations

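Other cells of the liver, some of which make ligands of the family, gave mixed values. Of 9 sinusoidal endothelial markers 5 were lower and 4 higher, with a median of -0.05; Clec4g, a lectin of these cells, read 10.70, 10.77 and 10.70 in controls and 11.02 and 11.04 in treated liver, while Lyve1, the hyaluronan receptor, was at -0.33 ± 0.18 (SE) and Cdh5, the endothelial cadherin, at -0.29 ± 0.15 (SE). Of 8 stellate cell markers 3 were lower and 5 higher, with a median of 0.03. Lrat, which stores vitamin A as esters, read 8.22, 8.24 and 8.48 in controls and 8.67 and 8.68 in treated liver, and Pdgfrb and Des were at -0.28 and 0.16. Of 4 measured bile duct markers 2 were lower and 2 higher. Sox9 read 7.42, 7.26 and 7.13 in controls and 6.91 and 6.62 in treated liver, while Krt19 (0.20) and Epcam (0.08) overlapped between groups, and the list stood at 0.29 on the first treated array and at -0.40 on the other. Lymphocyte markers, 3 lower and 4 higher of 7, overlapped between groups throughout, with Klrb1c at 0.33, Cd8a at 0.11 and Ms4a1 at -0.15. Of the remaining named genes, Mcpt8 (0.40), Cma1 (0.31) and Cpa3 (0.56), which mast cells or basophils make, lay under the 95th percentile of olfactory receptor probe sets, and Gata2 and Cd48 of the progenitor list were at -0.10 and -0.28. None of these genes passed in limma.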
